A study of Mus musculus with 30 samples.

Results

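The comparison described here sets sorted GFP-positive mesenchymal cells of the inflamed mouse colon against the unsorted cell preparation of the same tissue. It uses 6 libraries of the 30 samples that the labels list. There are 3 libraries of GFP-positive cells from the colon of mice with DSS-induced colitis and 3 of unsorted cells from the colon of such mice. DSS, dextran sulfate sodium, is given to mice to damage the colonic epithelium and provoke colitis. For context, 3 libraries of GFP-negative sorted cells from the DSS colon (called Tomato in the labels) and 3 GFP-positive and 3 unsorted libraries from the normal colon were used. All of these groups were C57BL/6 mice that carried ColVI-cre, a Cre recombinase transgene named for collagen VI, and the Rosa mTmG reporter. In mTmG animals a membrane Tomato protein is replaced by membrane GFP in cells in which Cre has been active, and in their descendants. GFP therefore records past activity of the Cre driver, not the present level of a collagen VI transcript. The age and sex of the mice, the course of DSS treatment and the number of animals behind each library are not stated in the labels.

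Mesenchymal cells of the intestinal lamina propria include fibroblasts, subepithelial telocytes, pericytes and smooth muscle cells. Telocytes are Pdgfra-high, Foxl1-positive cells that lie directly under the epithelium and secrete BMP and non-canonical Wnt ligands, whereas Cd34-positive fibroblasts near the crypt base secrete the BMP antagonist Grem1 and the R-spondin Rspo3, which favour stem cell maintenance. Unsorted preparations of an inflamed colon also hold epithelium, endothelium and infiltrating leukocytes such as neutrophils and macrophages. The series title names the cells of interest as Col6a1-positive and CD201-positive. CD201 is the endothelial protein C receptor, encoded by Procr.

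The 3 candidate marker genes of the GFP-positive cells were all higher in those cells than in the unsorted preparation, and the macrophage marker Adgre1 was listed at 0 in every GFP-positive library. Adamdec1, which encodes a secreted metalloproteinase-like protein (chr14:68563388-68582086, mm10), had 31790, 24785 and 37284 normalised counts in GFP-positive libraries, against 2569, 3433 and 4929 in unsorted libraries. No GFP-positive library overlapped an unsorted one, and the log2 fold change was 3.13 ± 0.28 (SE, n = 3 libraries each, limma adjusted p = 3.7e-06). Values here are the authors' normalised read counts, and fold changes are on the log2(value + 1) scale. Lamb1, the laminin beta-1 chain of basement membranes (chr12:31265234-31329644), had 19697, 17496 and 19341 normalised counts in GFP-positive libraries, against 1727, 3604 and 3384 in unsorted libraries. The groups were again separate, with a log2 fold change of 2.77 ± 0.28 (SE, limma adjusted p = 1.1e-05). Timp3, a matrix-bound inhibitor of metalloproteinases (chr10:86300372-86349506), had 6096, 5687 and 6404 normalised counts in GFP-positive libraries, against 1756, 1310 and 1334 in unsorted libraries, a log2 fold change of 2.06 ± 0.22 (SE, limma adjusted p = 1.4e-05). Timp3 lies within Syn3 (chr10:86055125-86498896), a gene on the opposite strand that rose alongside it (log2 fold change 1.95). The labels do not say whether reads were assigned by strand, so reads of the pair cannot be told apart.

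Adgre1, which encodes the macrophage surface protein F4/80 (chr17:57358686-57483529), was listed at 0, 0 and 0 in GFP-positive libraries, against 50, 76 and 55 in unsorted libraries (limma adjusted p = 1.3e-06). Its absence from the GFP-positive side means that no fold change is given. Procr, the gene of CD201 (chr2:155751117-155755471), had 5478, 5462 and 5215 normalised counts in GFP-positive libraries, against 813, 932 and 1209 in unsorted libraries. That difference, 2.47 ± 0.22 on the log2 scale (SE, limma adjusted p = 4.1e-06), was far larger than the spread within either group.

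Col6a1 itself, the collagen VI alpha-1 chain (chr10:76708792-76726168), had 675, 804 and 661 normalised counts in GFP-positive libraries, against 398, 207 and 142 in unsorted libraries. The lowest GFP-positive library stood above the highest unsorted one, but the unsorted libraries were widely spread, and the log2 fold change of 1.64 ± 0.32 (SE, limma adjusted p = 0.0015) was smaller than that of the candidate markers. In the authors' deposited table the FDR of Col6a1 was 0.073, which is not past 0.05. That FDR was 0.0017 for Adamdec1, 0.0037 for Lamb1, 0.015 for Timp3 and 0.0014 for Procr. Col6a1 is not alone in this, as 377 genes were higher by that FDR, against 2165 by limma. Many increases given below therefore do not pass it, among them Timp2, Mylk and Mmp2 (deposited FDR 0.13, 0.24 and 0.076). By the same FDR 1394 genes were lower, against 2905 by limma. Decreases such as Sfrp1, Myh11 and Mmp9 (deposited FDR 0.23, 0.30 and 0.34) do not pass it either. Procr, Col6a1 and the candidate markers also differed in how they stood against GFP-negative sorted cells of the DSS colon. That comparison shares its GFP-positive libraries with the one to unsorted cells. Procr had 519, 792 and 712 normalised counts in GFP-negative libraries (log2 fold change of GFP-positive over GFP-negative 3.02, limma adjusted p = 9.2e-08). Col6a1 had 968, 491 and 406 there, a range that includes every GFP-positive value (log2 fold change 0.30, adjusted p = 0.51 by limma). Adamdec1 (9686, 9649 and 15415 in GFP-negative libraries, log2 fold change of GFP-positive over GFP-negative 1.45), Lamb1 (6967, 8338 and 10089 in GFP-negative libraries, 1.17) and Timp3 (3281, 2300 and 2255 in GFP-negative libraries, 1.23) lay between the GFP-positive and unsorted values and passed the test against GFP-negative cells. Adamdec1, Lamb1 and Timp3 transcripts were thus also present in GFP-negative mesenchymal cells, at lower levels.

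**Figure D1:**
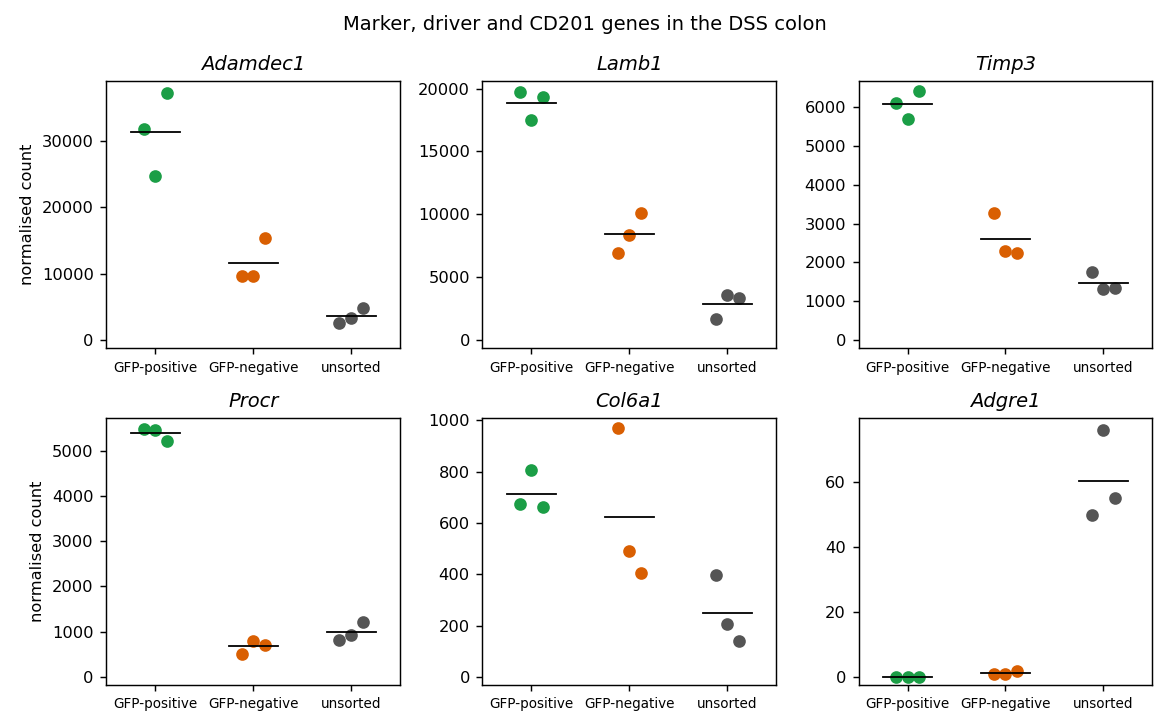
Normalised count (y axis, linear, one scale per gene) of 6 genes in the 3 GFP-positive, 3 GFP-negative and 3 unsorted libraries of the DSS colon. Points are libraries and bars are means. Procr in the GFP-positive libraries stood at 5215 to 5478, above every other library, whereas the GFP-negative libraries reached the GFP-positive level for Col6a1.

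Upstream sequence is shown for the marker genes Lamb1 and Timp3, for Procr, for Col6a1 as the gene that names the driver, and for S100a8, a neutrophil gene from the opposite end of the comparison. The windows are the 120 bases just upstream of the outermost annotated start (RefSeq, build GRCm38.p6), 5′ to 3′ on the strand of the gene. Capitals mark matches to 4 short motifs, searched on both strands. The GC box, of the kind bound by Sp1, was searched as GGGCGG, and the AP-1 site as TGANTCA. For PU.1, a myeloid factor of the ETS family, the letters were GAGGAAG, and the TATA box was searched as TATAAA. No matches overlap in the windows shown.
Lamb1: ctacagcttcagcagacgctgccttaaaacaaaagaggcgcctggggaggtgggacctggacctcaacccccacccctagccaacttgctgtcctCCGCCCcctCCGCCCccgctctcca
Timp3: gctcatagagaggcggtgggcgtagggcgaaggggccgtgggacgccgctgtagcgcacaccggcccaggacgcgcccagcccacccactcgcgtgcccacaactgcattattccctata
Procr: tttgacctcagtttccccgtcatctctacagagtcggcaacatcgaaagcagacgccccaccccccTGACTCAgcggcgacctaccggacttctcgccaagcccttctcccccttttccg
Col6a1: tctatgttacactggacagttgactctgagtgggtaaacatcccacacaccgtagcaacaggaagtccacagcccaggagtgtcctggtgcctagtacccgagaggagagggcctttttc
S100a8: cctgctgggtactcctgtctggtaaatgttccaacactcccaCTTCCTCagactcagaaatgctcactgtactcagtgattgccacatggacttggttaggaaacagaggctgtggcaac

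The windows lie at chr12:31265114-31265233 (plus strand), chr10:86300252-86300371 (plus strand), chr2:155750997-155751116 (plus strand), chr10:76726169-76726288 (minus strand) and chr3:90668858-90668977 (plus strand), in the order printed. Lamb1 held 2 GC boxes on its reverse strand, Procr an AP-1 sequence and S100a8 the reverse complement of the PU.1-type sequence, while none of the 4 motifs was found in the windows of Timp3 and Col6a1. Among the 9424 genes of the table with such a window, 46.6% held the GC box, 5.58% the PU.1-type sequence, 3.27% the TATA box and 2.26% the AP-1 sequence. The PU.1-type sequence was present for 4 of 15 macrophage and monocyte genes, 2 of 13 neutrophil genes and 1 of 6 collagen VI genes with a window, and for 0 of 4 pan-leukocyte, 0 of 6 telocyte and 0 of 15 general epithelial genes. The window of the neutrophil gene Csf3r, not printed, held none of the 4 motifs. These matches describe letters and not binding. Adamdec1 and Adgre1 had no window.

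Estimated depth was 2475000 to 3053000 reads in GFP-positive libraries and 3206000 to 3842000 reads in unsorted libraries, and 1 read was worth 0.974 to 1.327 and 0.795 to 0.888 normalised counts in them. These totals cover only the genes that the authors list. The estimate is least certain for GFP-positive library 3, the highest of its group, whose fit had r = 0.583, against 0.859 to 0.967 in the others. Libraries were correlated over genes with a mean of at least 10 across the 6 libraries (Pearson's r of log2 values, over genes, which are not independent). GFP-positive libraries correlated with each other at 0.964 to 0.967 and unsorted libraries at 0.92 to 0.951, against 0.672 to 0.758 between the groups. Of 13662 genes tested, 2165 (15.8%) were higher and 2905 (21.3%) lower in GFP-positive cells at a limma adjusted p under 0.05. The counts given below for gene lists are to be read beside these shares. The median log2 fold change of all tested genes was -0.04. Increases were shallower than decreases. Among called genes 58 rose and 1072 fell by at least 3 log2 units, and 144 of the called decreases were listed at 0 in all 3 GFP-positive libraries. Unsorted preparations may hold GFP-positive cells too, which would limit increases but not decreases. Genes listed at 0 in GFP-positive libraries were tested on their unsorted mean alone. The part of the design and the filter in this asymmetry was not tested. Libraries did not overlap for 22.5% of tested genes with GFP-positive cells higher and for 26.7% with them lower. In these bulk samples, fewer cells of a type and less RNA per cell cannot be told apart.

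Markers of epithelium fell steeply. All 18 epithelial genes, 13 tested colonocyte genes and 9 tested goblet cell genes fell in GFP-positive cells, with a median log2 fold change of -5.41 for the epithelial list. Epcam, an epithelial adhesion protein, had 7, 8 and 3 normalised counts in GFP-positive libraries, against 447, 638 and 1036 in unsorted libraries. Cdh1, the E-cadherin of epithelial junctions, had 38, 21 and 27 in GFP-positive libraries, against 912, 1946 and 3267 in unsorted libraries, and Muc2, the mucin that goblet cells secrete, had 14, 20 and 9 in GFP-positive libraries, against 843, 1105 and 1739 in unsorted libraries. In each case the highest GFP-positive value was far under the lowest unsorted value. Unsorted library 1 held the least epithelial signal, with a summed level of 3454 over the epithelial list, against 6706 and 8581 in unsorted libraries 2 and 3. The same sum was 249, 212 and 190 in GFP-positive libraries.

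Leukocyte transcripts fell steeply. Each of the 10 pan-leukocyte genes was lower in GFP-positive cells (median log2 fold change -6.24), and their summed level was 299, 76 and 67 in GFP-positive libraries, against 12478, 8164 and 7038 in unsorted libraries. GFP-positive library 1 thus held more leukocyte signal than libraries 2 and 3, which shows in Ptprc, the gene of CD45, with 17, 0 and 1 normalised counts in GFP-positive libraries, against 537, 304 and 197 in unsorted libraries. Leaving out 1 of the 3 GFP-positive libraries gave similar counts over all genes whichever it was, 1499 to 1576 higher and 2426 to 2506 lower. These counts were under the 2165 higher and 2905 lower found with all 3. Neutrophil genes fell for 15 of 16 tested. S100a8, a calgranulin abundant in neutrophils, had 115, 35 and 30 normalised counts in GFP-positive libraries, against 3705, 5137 and 3077 in unsorted libraries (log2 fold change -6.26 ± 0.44, SE, limma adjusted p = 2.9e-06). Lcn2, a neutrophil and epithelial siderophore-binding protein, was the exception, with 276, 799 and 371 in GFP-positive libraries, against 568, 1156 and 299 in unsorted libraries and groups that overlapped (log2 fold change -0.42, limma adjusted p = 0.55).

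Macrophage and monocyte genes fell for 23 of 24, Mertk being the one that did not pass (116, 173 and 118 normalised counts in GFP-positive libraries, against 86, 110 and 168 in unsorted libraries). C1qa, a complement subunit made by tissue macrophages, had 28, 16 and 22 in GFP-positive libraries, against 661, 639 and 1169 in unsorted libraries. All 10 MHC class II genes were lower, as were all 8 tested B cell genes, 13 of 15 T and NK cell genes and 9 of 12 plasma cell genes. Igha, the heavy chain of IgA, had 230, 82 and 75 normalised counts in GFP-positive libraries, against 37924, 13008 and 12130 in unsorted libraries. The plasma cell genes that did not pass were Prdm1, Xbp1 and Sdc1, which other cell types also express. Beta-globin Hbb-bs, a red cell transcript, had 30, 28 and 38 in GFP-positive libraries, against 1072, 567 and 729 in unsorted libraries, and 6 of 7 erythroid and platelet genes fell.

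Endothelial transcripts were also depleted. Of 16 tested blood endothelial genes, 14 fell and 2 rose. Pecam1, the endothelial adhesion protein CD31, had 9, 4 and 8 normalised counts in GFP-positive libraries, against 136, 134 and 119 in unsorted libraries, and Kdr, the VEGF receptor 2, had 27, 7 and 13 in GFP-positive libraries, against 478, 391 and 401 in unsorted libraries. The 2 that rose were Eng (log2 fold change 1.05), a TGF-beta co-receptor, and Ramp2 (log2 fold change 1.09), a receptor-modifying protein, which mesenchymal cells can express as well. Without GFP-positive library 2, Eng did not pass (limma adjusted p = 0.0512). Among 7 lymphatic genes, 5 fell, including Lyve1 (4, 1 and 3 in GFP-positive libraries, against 92, 120 and 49 in unsorted libraries), and Pdpn, the podoplanin that fibroblasts share with lymphatic endothelium, rose to 5185, 5107 and 6950 in GFP-positive libraries, against 1161, 1105 and 1749 in unsorted libraries. Pdpn did not differ past the threshold from GFP-negative cells (3742, 6402 and 5800, log2 fold change of GFP-positive over GFP-negative 0.14, limma adjusted p = 0.74). Of 9 tested glial and neuronal genes, 6 fell and 0 rose. Of 4 genes listed for interstitial cells of Cajal, Gja1 (log2 fold change 2.16) and Etv1 (1.12) rose, Ano1 did not pass and Kit, their receptor tyrosine kinase, fell to 2, 0 and 2 in GFP-positive libraries, against 41, 26 and 45 in unsorted libraries.

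**Figure D2:**
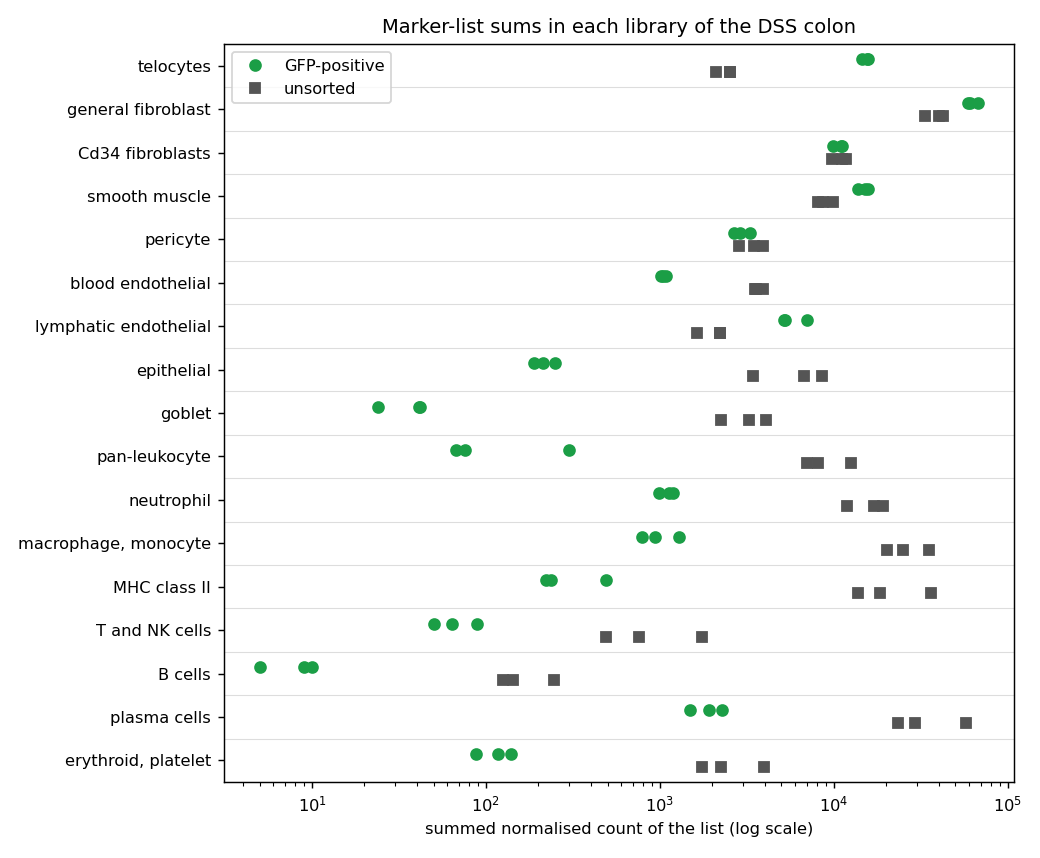
Summed normalised count of each marker list (x axis, log scale) in each library of the DSS colon, GFP-positive libraries as circles above unsorted libraries as squares. Telocyte sums were 14433 to 15752 in GFP-positive libraries and 2107 to 2519 in unsorted libraries, while pan-leukocyte sums were 67 to 299 and 7038 to 12478. The lymphatic sum is carried by Pdpn.

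Telocyte genes rose together. Of 16, 15 passed the test upward and 0 downward, with a median log2 fold change of 2.86 beside -0.04 over all genes. Pdgfra, the platelet-derived growth factor receptor that is highest in telocytes, had 2955, 3049 and 3424 normalised counts in GFP-positive libraries, against 414, 497 and 456 in unsorted libraries (log2 fold change 2.78 ± 0.21, SE, limma adjusted p = 1.1e-06). Foxl1, the forkhead factor used to identify telocytes, had 247, 243 and 295 in GFP-positive libraries, against 21, 21 and 19 in unsorted libraries. Every GFP-positive library was several-fold above every unsorted one for both genes. Sox6, an SRY-type transcription factor, had 383, 280 and 307 in GFP-positive libraries, against 14, 28 and 42 in unsorted libraries. Frzb, a secreted Wnt-binding protein, was the member that did not pass (256, 131 and 189 in GFP-positive libraries, against 87, 230 and 238 in unsorted libraries). Against GFP-negative cells, 14 of the 16 were higher and 1, Frzb, lower, where 8.22% and 8.90% of the 12570 genes tested there were called higher and lower. Foxl1 had 16, 21 and 27 and Sox6 4, 10 and 10 normalised counts in GFP-negative libraries.

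Genes of Cd34-positive fibroblasts were mixed against unsorted cells and lower against GFP-negative cells. Of 18, 4 rose, 9 fell and 5 did not pass against unsorted cells (median log2 fold change -0.70), and 15 of 17 were lower than in GFP-negative cells, with 1, Ly6c1, higher. Cd34, the sialomucin that names these cells, had 235, 173 and 238 normalised counts in GFP-positive libraries, against 352, 207 and 291 in unsorted libraries, with overlapping groups (limma adjusted p = 0.26). Its GFP-negative libraries held 1300, 1299 and 1259. Cd81, a tetraspanin, was lower in both comparisons, with 42, 35 and 45 in GFP-positive, 306, 267 and 292 in GFP-negative and 370, 336 and 317 in unsorted libraries. Clec3b, a plasminogen-binding lectin (log2 fold change 1.25), Ly6c1 (1.03, reads possibly shared with Ly6c2), Dpt (0.79) and Fbln1 (0.82) were the members that rose against unsorted cells. Dpt lost its call without GFP-positive library 1 or 3 (limma adjusted p = 0.103 and 0.0584), and Fbln1 without either of these (0.0589 and 0.105) or unsorted library 2 (0.0806). Pan-fibroblast genes rose for 9 of 20 and fell for 2, Mgp and Thy1, whereas against GFP-negative cells 1 of 20 was higher and 14 were lower. Thy1, the fibroblast surface protein CD90, had 19, 9 and 8 in GFP-positive libraries, against 122, 91 and 44 in unsorted libraries. Dcn and Col3a1, both abundant in fibroblasts, did not pass: Dcn had 4984, 5942 and 4957 in GFP-positive libraries, against 6238, 6118 and 4231 in unsorted libraries, and Col3a1 had 9456, 7274 and 9324 in GFP-positive libraries, against 7786, 10863 and 5017 in unsorted libraries.

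Contractile and mural genes split. Of 17 smooth muscle and contractile genes, 5 rose and 7 fell. Mylk, the myosin light chain kinase, had 7006, 6549 and 7932 normalised counts in GFP-positive libraries, against 2318, 2581 and 4003 in unsorted libraries (log2 fold change 1.31 ± 0.25, SE). Acta2, the smooth muscle actin, did not pass (1365, 1165 and 1696 in GFP-positive libraries, against 1320, 1510 and 1068 in unsorted libraries). Cald1 (log2 fold change 1.37), Smtn (0.94) and Myl9 (0.87) also rose. Smtn and Myl9 lost their calls without unsorted library 2 or GFP-positive library 2 or 3 (limma adjusted p up to 0.0649 and 0.0946). Among those that fell, Myh11, a smooth muscle myosin, had 90, 93 and 94 in GFP-positive libraries, against 243, 218 and 137 in unsorted libraries. Actg2, an enteric actin, had 62, 45 and 56 in GFP-positive libraries, against 213, 135 and 211 in unsorted libraries. Against GFP-negative cells, 8 of the 17 were higher and 3 lower. Acta2 had 714, 424 and 407 there (log2 fold change of GFP-positive over GFP-negative 1.48, limma adjusted p = 0.00031). Myh11 and Actg2 did not differ past the threshold from GFP-negative cells (log2 fold change -0.06 and -0.32, limma adjusted p = 0.87 and 0.39). Among 11 pericyte genes, 4 rose (Pdgfrb, Abcc9, Kcnj8 and Cspg4), 2 fell (Mcam and Rgs4) and 5 did not pass. These shares, 36.4% higher and 18.2% lower, stood beside 15.8% and 21.3% over all tested genes. Of the 11, 7 were higher and 0 lower than in GFP-negative cells. Cspg4, the NG2 proteoglycan, had 74, 92 and 66 in GFP-positive libraries, against 19, 34 and 26 in unsorted libraries.

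Transcription factors of the mesenchyme rose for 15 of 22 and fell for 4 against unsorted cells. Against GFP-negative cells 7 of the 22 were higher and 10 lower. Foxf1, a forkhead factor of gut mesenchyme, had 883, 1235 and 1042 normalised counts in GFP-positive libraries, against 229, 345 and 288 in unsorted libraries. Nkx2-3, a homeobox factor of intestinal mesenchyme and endothelium, had 1595, 1618 and 1318 in GFP-positive libraries, against 192, 319 and 364 in unsorted libraries, and Tcf4, a basic helix-loop-helix factor, had 3306, 2804 and 2931 in GFP-positive libraries, against 740, 839 and 798 in unsorted libraries. No GFP-positive library overlapped an unsorted one for these 3 genes. Foxp1, Foxp2, Zeb2 and Hand2 were the 4 that fell, Hand2 to 4, 3 and 0 in GFP-positive libraries, against 48, 17 and 17 in unsorted libraries. Scaling all libraries to equal totals lowered the 15 to 13.

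All 6 collagen VI chains rose, with a median log2 fold change of 2.02, and the list is related to the Cre driver by name. Col6a3, the longest chain, had 5847, 5426 and 6178 normalised counts in GFP-positive libraries, against 1621, 1019 and 1373 in unsorted libraries, and Col6a2 had 1859, 2000 and 2015 in GFP-positive libraries, against 682, 626 and 344 in unsorted libraries. The less abundant Col6a4 had 382, 293 and 554 in GFP-positive libraries, against 64, 58 and 107 in unsorted libraries, and was also higher than in GFP-negative cells (57, 56 and 73), as was Col6a2, so that 2 of the 6 chains passed there. Of 17 other collagens tested, 10 rose and 1, Col8a1, fell, and 7 were higher and 4 lower than in GFP-negative cells. Col4a5 and Col4a6, paired chains of basement membrane collagen IV, were the steepest: Col4a6 had 153, 194 and 163 in GFP-positive libraries, 18, 21 and 10 in GFP-negative libraries and 14, 17 and 12 in unsorted libraries (log2 fold change over unsorted 3.48, limma adjusted p = 1.1e-06). The fibrillar Col1a1 did not pass (5369, 5088 and 4834 in GFP-positive libraries, against 3634, 4694 and 2137 in unsorted libraries, log2 fold change 0.62, limma adjusted p = 0.1).

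Basement membrane genes rose for 9 of 14 tested and fell for 1, and against GFP-negative cells 5 of 13 were higher and 2 lower. Beside Lamb1, laminin alpha-4 (Lama4) had 986, 1697 and 1887 in GFP-positive libraries, against 187, 172 and 377 in unsorted libraries, and laminin gamma-1 (Lamc1) had 729, 856 and 638 in GFP-positive libraries, against 296, 258 and 241 in unsorted libraries. The epithelial chain Lamb3 was the one that fell, to 0, 0 and 3 in GFP-positive libraries, against 13, 17 and 8 in unsorted libraries. Elastic fibre and crosslinking genes rose for 12 of 21 tested and fell for 2, Mfap5 and Emilin2. Against GFP-negative cells 2 of these 21 were higher and 11 lower. Fbn2, a fibrillin, was the steepest of them, with 199, 151 and 172 in GFP-positive libraries, against 11, 19 and 23 in unsorted libraries. Elastin itself (Eln) did not pass (661, 507 and 401 in GFP-positive libraries, against 823, 981 and 610 in unsorted libraries).

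Matrix-degrading enzymes rose for 12 of 31 tested (38.7%), 10 with equal totals, and fell for 5 (16.1%). The shares over all tested genes were 15.8% and 21.3%. Of 28 tested against GFP-negative cells, 5 were higher and 9 lower. Apart from Adamdec1, Mmp2, a gelatinase of stromal cells, had 2719, 2290 and 2832 normalised counts in GFP-positive libraries, against 808, 1295 and 646 in unsorted libraries, and the stromelysin Mmp10 had 943, 799 and 954 in GFP-positive libraries, against 189, 198 and 204 in unsorted libraries. Mmp10 was lower still in GFP-negative cells, at 120, 91 and 107 (log2 fold change of GFP-positive over GFP-negative 3.08, limma adjusted p = 6.9e-08). Adam19, a membrane-bound metalloproteinase, had 332, 247 and 224 in GFP-positive libraries, against 33, 62 and 55 in unsorted libraries. The 5 that fell were Mmp7, Mmp8, Mmp9 (limma adjusted p = 0.0761 without unsorted library 2 and 0.0704 without GFP-positive library 2), Mmp12 and Mmp15, among them the neutrophil collagenase Mmp8 (13, 3 and 1 in GFP-positive libraries, against 199, 509 and 153 in unsorted libraries). Collagenase Mmp13 and stromelysin Mmp3 did not pass, Mmp3 having 1325, 1115 and 1891 in GFP-positive libraries, against 1169, 644 and 1017 in unsorted libraries. Among protease inhibitors and plasminogen genes, 4 of 13 rose and 4 fell, and 2 of 12 were higher and 8 lower than in GFP-negative cells. Like Timp3, Timp2 rose against unsorted cells, to 5221, 5792 and 5190 in GFP-positive libraries, against 1745, 1811 and 1948 in unsorted libraries. Unlike Timp3, it was lower than in GFP-negative cells (8245, 8828 and 8011, log2 fold change of GFP-positive over GFP-negative -0.63, limma adjusted p = 0.025). Timp1 fell to 113, 58 and 62 in GFP-positive libraries, against 344, 180 and 148 in unsorted libraries.

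BMP ligands rose steeply. Of 15 BMP, GDF, activin and TGF-beta genes, 9 rose and 4 fell, and 7 were higher and 3 lower than in GFP-negative cells. Bmp5 had 2909, 2966 and 3234 normalised counts in GFP-positive libraries, against 195, 239 and 338 in unsorted libraries (log2 fold change 3.59 ± 0.24, SE, limma adjusted p = 5.4e-07). Bmp2 had 1875, 2288 and 1604 in GFP-positive libraries, against 210, 391 and 288 in unsorted libraries, and Bmp7 had 944, 1160 and 1194 in GFP-positive libraries, against 121, 91 and 92 in unsorted libraries. All GFP-positive libraries were above all unsorted libraries for these 3 ligands. Bmp4 rose less, to 554, 508 and 703 in GFP-positive libraries, against 449, 266 and 137 in unsorted libraries (log2 fold change 1.19, limma adjusted p = 0.02), and did not differ past the threshold from GFP-negative cells (1329, 485 and 448). Its call was lost without unsorted library 2 (limma adjusted p = 0.0577) or GFP-positive library 3 (0.0844). Bmp3 had 263, 194 and 225 in GFP-positive libraries, 1, 3 and 5 in GFP-negative libraries and 29, 20 and 41 in unsorted libraries. The 4 that fell were Gdf15, Gdf10, Inhbb and Tgfb3, of which Gdf15 lost its call without unsorted library 3 or GFP-positive library 3 (limma adjusted p = 0.0564 and 0.113) and Inhbb without any one library other than unsorted library 1 (up to 0.154).

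Antagonists of BMP went in both directions, 3 of 12 tested up and 4 down, and 2 of 11 were higher and 7 lower than in GFP-negative cells. Grem1, the gremlin that blocks BMPs near crypts, fell to 223, 80 and 147 in GFP-positive libraries, against 595, 772 and 671 in unsorted libraries (log2 fold change -2.28 ± 0.32, SE, limma adjusted p = 0.00013), and had 2914, 2690 and 3318 in GFP-negative libraries. Nbl1, a DAN-family antagonist, had 2143, 2061 and 2240 normalised counts in GFP-positive libraries, against 302, 305 and 263 in unsorted libraries, and Twsg1, a secreted BMP-binding protein, had 906, 759 and 655 in GFP-positive libraries, against 122, 147 and 124 in unsorted libraries. Chrd, chordin, was the third to rise.

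Wnt ligands rose for all 6 tested, 5 when libraries were scaled to equal totals, while 2 were higher and 2 lower than in GFP-negative cells. Wnt5a, a non-canonical ligand of telocytes, had 1227, 1190 and 1144 normalised counts in GFP-positive libraries, against 69, 116 and 135 in unsorted libraries (log2 fold change 3.52 ± 0.26, SE, limma adjusted p = 1.1e-06), and 96, 94 and 107 in GFP-negative libraries. Wnt4 had 288, 292 and 342 in GFP-positive libraries, against 53, 50 and 60 in unsorted libraries. Wnt2b, a canonical ligand, rose to 79, 88 and 79 in GFP-positive libraries, against 39, 42 and 45 in unsorted libraries, but was higher in GFP-negative cells (160, 180 and 233, log2 fold change of GFP-positive over GFP-negative -1.19, limma adjusted p = 0.00063). The R-spondin Rspo3, which amplifies Wnt signals, fell to 32, 11 and 11 in GFP-positive libraries, against 56, 43 and 55 in unsorted libraries, and Rspo1 did not pass. Among Wnt inhibitors, 2 of 8 tested rose and 3 fell, and 1 of 7 was higher and 5 were lower than in GFP-negative cells. Wif1 had 209, 346 and 245 in GFP-positive libraries, 0, 0 and 6 in GFP-negative libraries and 14, 21 and 8 in unsorted libraries, whereas Sfrp1 had 632, 669 and 705 in GFP-positive, 7569, 6505 and 6876 in GFP-negative and 2086, 1399 and 1352 in unsorted libraries.

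Other growth factors rose for 7 of 15 tested and fell for 2, and 3 were higher and 5 lower than in GFP-negative cells. Fgf9, a fibroblast growth factor, had 326, 260 and 303 normalised counts in GFP-positive libraries, against 13, 18 and 32 in unsorted libraries. Gdnf, a ligand of the receptor Ret, had 126, 134 and 81 in GFP-positive libraries, against 11, 22 and 17 in unsorted libraries, and Nrg1, the ErbB3 and ErbB4 ligand neuregulin, had 367, 441 and 579 in GFP-positive libraries, against 232, 198 and 194 in unsorted libraries. Ereg, the epiregulin that activates the EGF receptor, had 2436, 3757 and 2655 in GFP-positive libraries, against 922, 1042 and 738 in unsorted libraries. The EGF-family ligands Areg and Hbegf were the 2 that fell. Hedgehog signals from epithelium to mesenchyme, and the ligand Ihh fell to 3, 0 and 2 in GFP-positive libraries, against 14, 39 and 54 in unsorted libraries, while its receptor Ptch1 (388, 369 and 329 in GFP-positive libraries, against 73, 75 and 79 in unsorted libraries), the transducer Smo and the factors Gli1, Gli2 and Gli3 rose. In all, 5 of 11 hedgehog genes rose and 4 fell (median log2 fold change -0.28), the others beside Ihh being Hhip, an inhibitor that binds the ligands, and the co-receptors Gas1 and Cdon. Against GFP-negative cells 1 of 10, Ptch1, was higher and 5 were lower. Of 22 vessel-related genes, 7 rose (31.8%) and 5 fell (22.7%), beside 15.8% and 21.3% over all tested genes. Of 21 tested against GFP-negative cells, 5 were higher and 9 lower. The endothelin receptor Ednrb separated GFP-positive cells (509, 499 and 709) from GFP-negative (29, 40 and 55) and unsorted (199, 168 and 157) cells. Notch pathway genes rose for 2 of 11 tested (18.2%) and fell for 5 (45.5%). Those that rose were Hes1 (limma adjusted p = 0.0776 without GFP-positive library 2) and Dll1 (0.0718 and 0.0623 without GFP-positive library 1 or 3). Among those that fell was the endothelial ligand Dll4 (11, 7 and 4 in GFP-positive libraries, against 264, 149 and 74 in unsorted libraries).

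**Figure D3:**
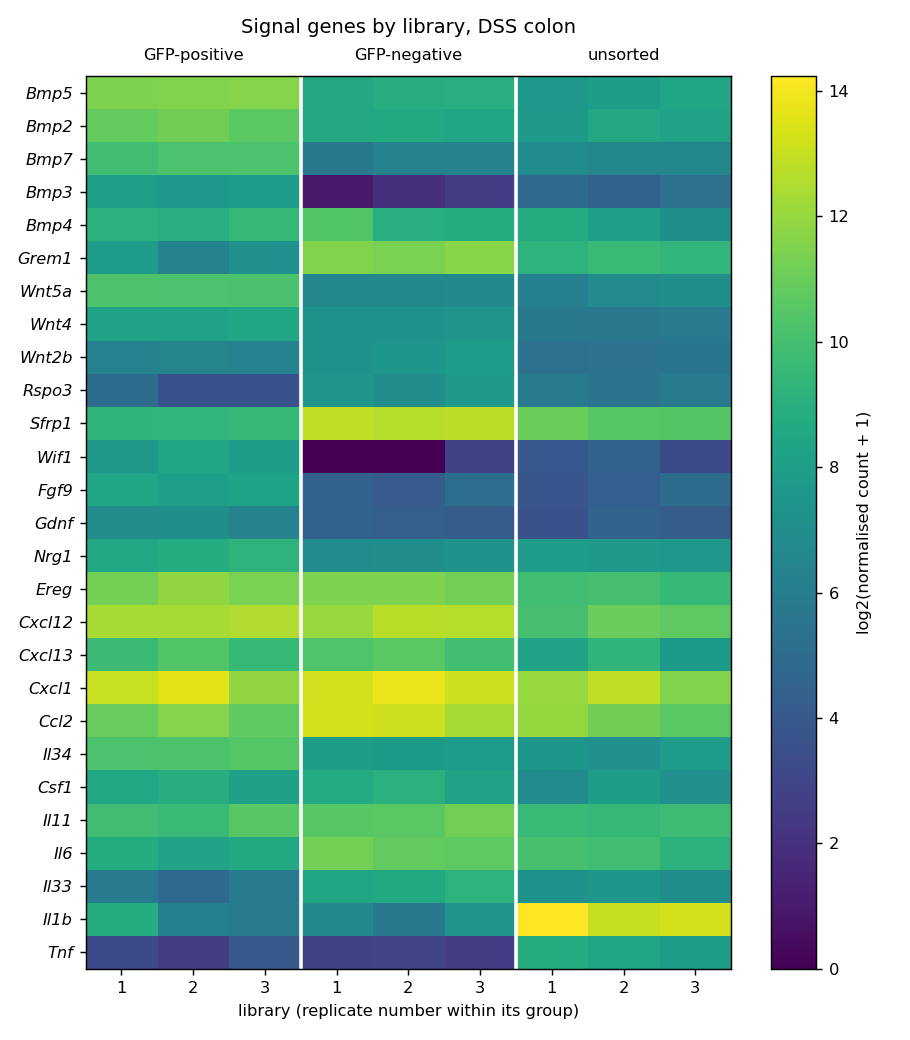
Level of 27 signal genes as log2(normalised count + 1) (colour) in each of the 9 libraries of the DSS colon (columns, 3 per group). Bmp5, Bmp7, Wnt5a, Fgf9 and Il34 were brightest in GFP-positive libraries, Grem1, Rspo3, Sfrp1, Il6 and Il33 in GFP-negative libraries, and Il1b and Tnf in unsorted libraries. Genes were chosen after their values were seen.

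Chemokines of myeloid cells fell. Of 14 CC chemokines tested, 9 fell and 0 rose. Ccl4, which myeloid cells produce, had 25, 8 and 21 in GFP-positive libraries, against 2054, 699 and 1283 in unsorted libraries, and its relative Ccl3 had 2, 1 and 1 in GFP-positive libraries, against 400, 241 and 180 in unsorted libraries. The monocyte attractant Ccl2 did not pass, with 1968, 3256 and 1745 in GFP-positive libraries, against 3983, 2260 and 1518 in unsorted libraries and overlapping groups. It was lower than in GFP-negative cells (9720, 9171 and 5050, log2 fold change -1.78, limma adjusted p = 0.00061). CXC chemokines rose for 3 of 12 and fell for 3 (25% each), near the 15.8% and 21.3% over all tested genes. Cxcl12, a stromal chemokine, had 5357, 5265 and 5871 normalised counts in GFP-positive libraries, against 1039, 2026 and 1642 in unsorted libraries, and the B cell attractant Cxcl13 had 843, 1334 and 729 in GFP-positive libraries, against 316, 630 and 212 in unsorted libraries, while Cxcl14 was the third. The neutrophil attractant Cxcl1 was abundant on both sides, with overlapping groups (8264, 12123 and 3790 in GFP-positive libraries, against 4244, 7384 and 3018 in unsorted libraries).

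Cytokines and their receptors rose for 8 of 24 and fell for 12, and of 20 tested against GFP-negative cells 2 were higher and 8 lower. Il34, a ligand of the CSF1 receptor, had 1170, 1213 and 1453 normalised counts in GFP-positive libraries, against 176, 148 and 233 in unsorted libraries (log2 fold change 2.80 ± 0.23, SE, limma adjusted p = 2.2e-06), and 246, 217 and 221 in GFP-negative libraries. Csf1, which acts on the same receptor, had 369, 464 and 277 in GFP-positive libraries, against 118, 245 and 144 in unsorted libraries. The receptors Il11ra1 and Osmr rose, Osmr to 491, 414 and 432 in GFP-positive libraries, against 70, 166 and 164 in unsorted libraries. Among those that fell, Il1b had 446, 69 and 60 in GFP-positive libraries, against 19233, 8224 and 9828 in unsorted libraries, Tnf had 8, 5 and 15 in GFP-positive libraries, against 446, 329 and 254 in unsorted libraries, and Il6 had 445, 321 and 413 in GFP-positive libraries, against 1083, 942 and 555 in unsorted libraries. Il6 was higher in GFP-negative cells, at 2439, 1817 and 1683, as was Il33 (58, 28 and 55 in GFP-positive, 340, 400 and 593 in GFP-negative and 155, 186 and 133 in unsorted libraries). Il11 did not pass (930, 794 and 1465 in GFP-positive libraries, against 762, 714 and 880 in unsorted libraries). GFP-positive library 1, which held the most leukocyte signal, also held the most Il1b, and the part of that signal in these values was not tested.

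Innate and antiviral genes were mixed. Complement genes rose for 3 of 17 and fell for 10, with C1s1 and C1ra, the serine proteases of the classical pathway, rising (C1ra 3589, 3481 and 3160 in GFP-positive libraries, against 1025, 1351 and 1074 in unsorted libraries) and the macrophage C1q chains falling. Of 10 acute phase and antimicrobial genes tested, 8 fell, among them the epithelial lectins Reg3b and Reg3g. Saa3, a serum amyloid of stromal and myeloid cells, did not pass (3156, 3892 and 4211 in GFP-positive libraries, against 10008, 8789 and 3537 in unsorted libraries). Interferon-stimulated genes rose for 3 of 32 (9.38%) and fell for 9 (28.1%), with 20 not past the threshold. Over all tested genes 15.8% rose and 21.3% fell. Ifi44 lost its call with equal totals (limma adjusted p = 0.0759) or without any 1 library other than unsorted library 1 (up to 0.145). Usp18 lost its call without unsorted library 2 or GFP-positive library 2 or 3 (up to 0.0725). Irf1 had 24821, 35938 and 19394 in GFP-positive libraries, against 11243, 10024 and 11869 in unsorted libraries. MHC class I genes were 1 up (7.69%) and 3 down (23.1%) of 13, and NF-kappa-B feedback and adhesion genes were 0 up and 4 down (28.6%) of 14.

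Cell cycle genes were lower than in unsorted cells for 11 of 29 tested and higher for 0, yet higher than in GFP-negative cells for 18 of 27 tested and lower for 0. Top2a, a topoisomerase of dividing cells, had 169, 93 and 150 in GFP-positive, 41, 37 and 46 in GFP-negative and 338, 205 and 259 in unsorted libraries. Birc5, survivin, had 154, 121 and 135 in GFP-positive, 51, 52 and 44 in GFP-negative and 461, 242 and 355 in unsorted libraries. The GFP-positive libraries thus lay between the other sorted cells and the unsorted preparation for both genes, and Top2a did not pass against unsorted cells without GFP-positive library 2 (limma adjusted p = 0.0846).

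Immediate early and heat shock genes, which are known to respond to tissue dissociation and sorting, rose for 12 of 24 tested, 10 with equal totals, and fell for 1, Dusp2. Jun had 30808, 41823 and 31874 normalised counts in GFP-positive libraries, against 13938, 14176 and 17060 in unsorted libraries, and Hspa1a, an inducible chaperone, had 21110, 22858 and 16815 in GFP-positive libraries, against 8012, 8062 and 7569 in unsorted libraries. Egr1 was uneven, with 36358, 40818 and 12389 in GFP-positive libraries, against 6884, 9201 and 10875 in unsorted libraries. Their summed level was 185297, 233091 and 144603 in GFP-positive libraries, against 119502, 100208 and 103304 in unsorted libraries. Against GFP-negative cells, which were sorted too, 0 of 24 were higher and 5 lower. The part of handling in these and other differences from unsorted cells was not tested.

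Metabolic and lipid mediator groups were mixed. Glycolysis and hypoxia genes fell for 8 of 19 and rose for 1, Ndrg1, which did not pass without GFP-positive library 2 (limma adjusted p = 0.0613). Unfolded protein response genes fell for 2 of 21 and rose for 0. Of 15 prostaglandin genes tested, 5 rose and 4 fell: the synthases Ptges (866, 1267 and 956 in GFP-positive libraries, against 345, 404 and 312 in unsorted libraries), Ptgs1 and Ptgis, the receptor Ptger2 and the degrading enzyme Hpgd rose, while Ptgs2, the inducible cyclooxygenase, did not pass (2132, 2641 and 1894 in GFP-positive libraries, against 3114, 2582 and 1676 in unsorted libraries). Retinoid genes rose for 5 of 13 tested and fell for 1. Aldh1a1, which makes retinoic acid, had 399, 311 and 427 in GFP-positive libraries, 72, 78 and 80 in GFP-negative libraries and 67, 70 and 80 in unsorted libraries.

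**Figure D4:**
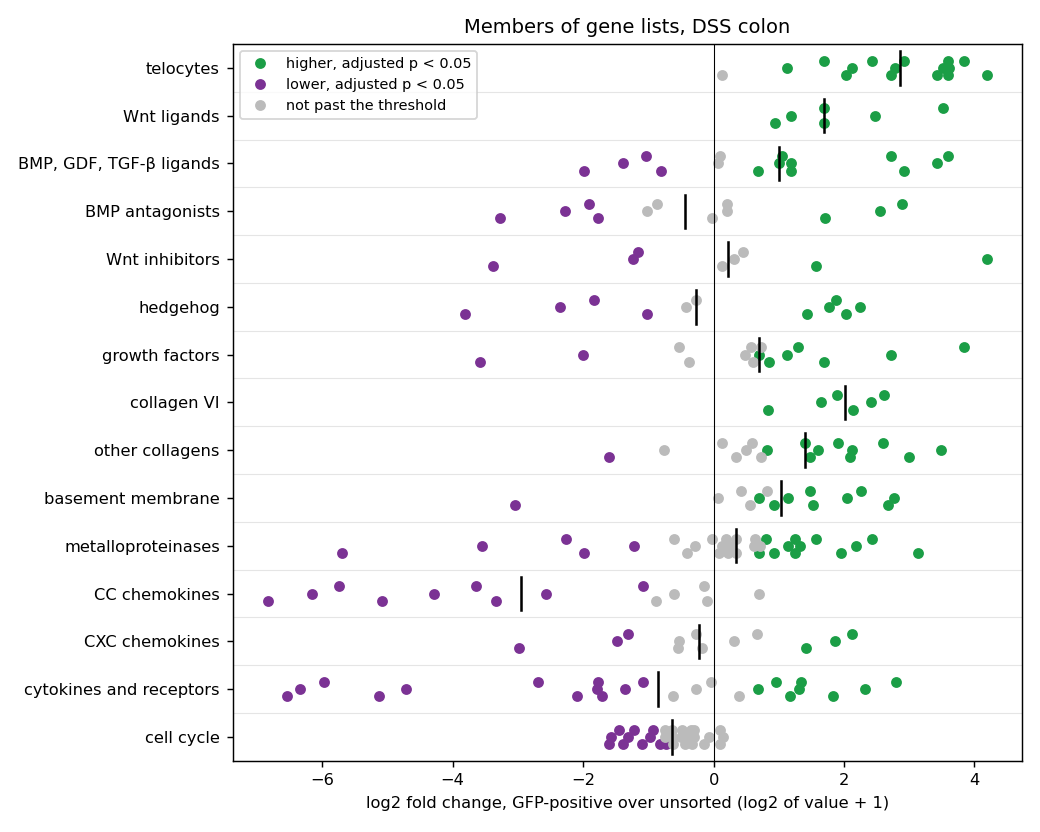
Log2 fold change of GFP-positive over unsorted cells (x axis, log2 of value + 1) for each tested member of 15 gene lists, coloured by direction where the adjusted p was under 0.05. Black ticks are list medians, 2.86 for telocyte genes and 2.02 for collagen VI, beside -2.96 for CC chemokines. Values of genes near 0 in one group depend on the 1 that was added.

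The 12 largest named increases had log2 fold changes of 3.64 to 4.38. In order they were Slc6a11, Lrrc55, Cntnap5a, Wif1, Bean1, Rerg, Fgf9, Adrb1, Sv2b, Tmem132e, Tmem158 and Sall1. Several are better known from neurons: Slc6a11 is a GABA transporter, Sv2b a synaptic vesicle protein and Cntnap5a a contactin-associated protein. Slc6a11 had 397, 330 and 481 normalised counts in GFP-positive libraries, against 17, 12 and 29 in unsorted libraries (limma adjusted p = 7.6e-07), and 23, 36 and 42 in GFP-negative libraries. Bean1, a membrane protein that binds a ubiquitin ligase, had 1100, 1026 and 1264 in GFP-positive libraries, against 49, 36 and 129 in unsorted libraries, and Tmem158 had 2340, 1963 and 1863 in GFP-positive libraries, against 207, 122 and 167 in unsorted libraries. Adrb1, the beta-1 adrenergic receptor, had 153, 154 and 129 in GFP-positive libraries, against 6, 8 and 17 in unsorted libraries. All 12 were also higher than in GFP-negative cells past the threshold, Wif1 by the most (log2 fold change 7.10) and Sall1 by the least (2.38). Of all genes tested there, 8.22% were called higher. The 12 were picked by their values in the same GFP-positive libraries, so their count against GFP-negative cells is not independent of the pick.

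The 12 largest named decreases had log2 fold changes of -7.85 to -6.99. Among them were Amy2a2, Wfdc17, Reg3b, Amy2a4, Amy2a3, Clec4e, Duox2, Zg16, Retnlg, Klk1 and Tspan1. Clec4e, a C-type lectin receptor of myeloid cells, had 6, 3 and 0 normalised counts in GFP-positive libraries, against 642, 448 and 282 in unsorted libraries. Reg3b, an antimicrobial lectin of the epithelium, had 20, 24 and 8 in GFP-positive libraries, against 3307, 2723 and 3269 in unsorted libraries, and Duox2, an epithelial oxidase, had 0, 0 and 1 in GFP-positive libraries, against 115, 281 and 168 in unsorted libraries. The Amy2a genes are near-identical copies of pancreatic amylase among which short reads cannot be divided with confidence, and unsorted library 1 held far more of them than the others (Amy2a2 25, 1 and 0 in GFP-positive libraries, against 4066, 507 and 308 in unsorted libraries).

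Whether the GFP-positive over unsorted difference was the same in the normal colon was tested by the interaction term. Of 14782 genes tested, 16 passed (0.108%): 9 (0.0609%) had a more positive difference in the DSS colon and 7 (0.0474%) a more negative one at a limma adjusted p under 0.05, and 1308 had an unadjusted p under 0.05. In simulated data of these group sizes, all genes had the same spread and changes were placed only in genes with a mean of at least 50. There the same test recovered 5% of genes whose difference changed 2-fold and 56% of those with a 4-fold change, so smaller differences were mostly not detectable. Recovery of less abundant genes, or of genes with a wider spread, was not simulated. For telocyte genes the median difference was 0.24 on the log2 scale and 0 of 16 passed. Timp3, with 1352, 1233 and 1324 in normal GFP-positive libraries and 1158, 798 and 1203 in normal unsorted libraries, had an interaction of 1.73 ± 0.37 (SE) that did not pass (limma adjusted p = 0.1), while Syn3, which overlaps it, had an interaction of 2.15 that did (limma adjusted p = 0.036). Levels in the normal colon are on their own scale and are compared only within it. In the sample titles the DSS and the normal colon libraries carry separate runs of numbers. An effect of DSS and a difference in how the 2 sets were made therefore cannot be told apart where the latter differs between sorted and unsorted cells.

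The genes that passed include matrix, mural and signalling genes. Mmp13, a collagenase, had 471, 356 and 678 in GFP-positive and 379, 256 and 311 in unsorted libraries of the DSS colon, and 17, 7 and 19 in GFP-positive and 408, 229 and 364 in unsorted libraries of the normal colon, an interaction of 5.15 ± 0.51 (SE, limma adjusted p = 0.00026). The groups overlapped in the DSS colon and were separate in the normal colon. Rgs5, a pericyte regulator of G protein signals, had 1307, 1202 and 898 in GFP-positive and 912, 1429 and 1748 in unsorted libraries of the DSS colon, and 99, 97 and 244 in GFP-positive and 2671, 1852 and 1602 in unsorted libraries of the normal colon (3.67 ± 0.52, limma adjusted p = 0.0042). Chl1, a neural cell adhesion molecule, had 1322, 1708 and 1510 in GFP-positive and 847, 914 and 927 in unsorted libraries of the DSS colon, and 18, 21 and 37 in GFP-positive and 257, 199 and 156 in unsorted libraries of the normal colon, an interaction of 3.75 ± 0.40 (SE, limma adjusted p = 0.00048). In the opposite direction, Inhba, the activin beta-A subunit, had 185, 305 and 232 in GFP-positive and 348, 103 and 318 in unsorted libraries of the DSS colon, and 139, 99 and 143 in GFP-positive and 8, 5 and 4 in unsorted libraries of the normal colon (-4.22 ± 0.57, limma adjusted p = 0.0033). Its normal groups were fully separate and its DSS groups overlapped. Tgfbi, a TGF-beta-induced matrix protein, had 793, 730 and 850 in GFP-positive and 1430, 1025 and 923 in unsorted libraries of the DSS colon, and 2398, 2612 and 2356 in GFP-positive and 945, 482 and 589 in unsorted libraries of the normal colon (-2.41 ± 0.40, limma adjusted p = 0.023).

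One library of the normal colon bears on these counts. Normal unsorted library 1 had a summed epithelial level of 3088, against 21113 and 14756 in normal unsorted libraries 2 and 3. Without it, 33 genes had a more positive and 21 a more negative difference. The interactions named above held without it, at 4.98 for Mmp13, 3.46 for Rgs5, 3.57 for Chl1, -4.46 for Inhba and -2.69 for Tgfbi, each past the threshold. Tgfbi, however, lost its call in 9 of the 12 fits that leave out 1 library (limma adjusted p up to 0.117), as Syn3 did in 10 (up to 0.121), whereas Mmp13, Rgs5, Chl1 and Inhba kept theirs in all 12.

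**Figure D5:**
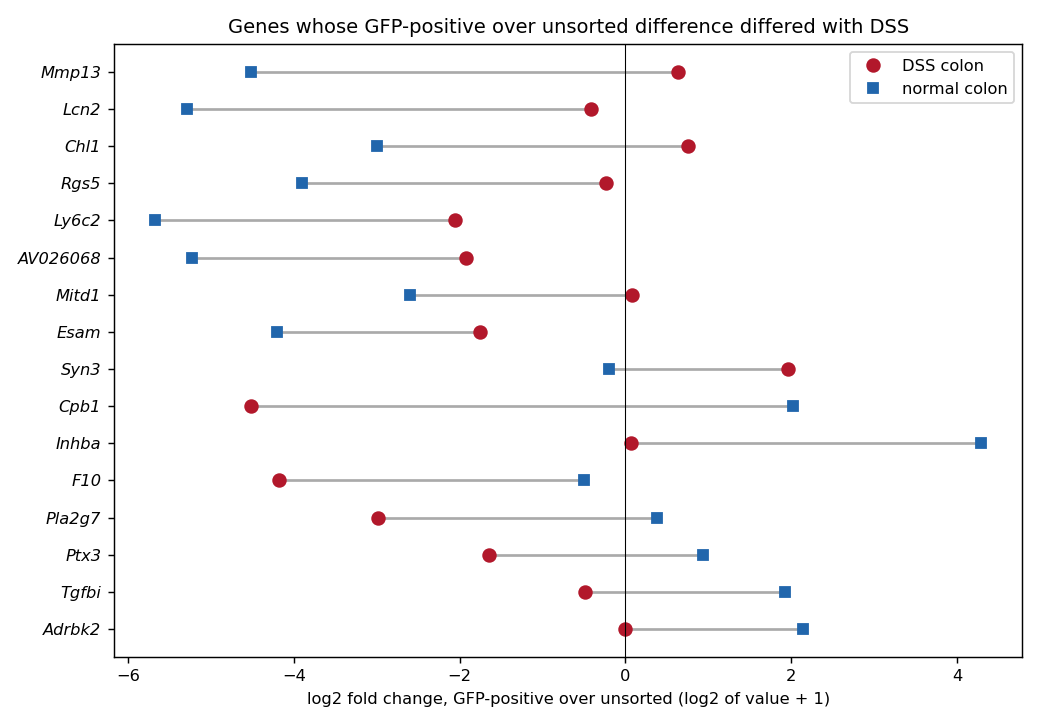
Log2 fold change of GFP-positive over unsorted cells (x axis, log2 of value + 1) in the DSS colon (circles) and the normal colon (squares) for the 16 genes whose difference between them passed the threshold. Mmp13, Chl1, Rgs5 and Lcn2 lay within 1 log2 unit of 0 in the DSS colon and far below 0 in the normal colon, and Inhba lay near 0 in the DSS colon and far above 0 in the normal colon. Lcn2 was listed at 0 in the normal GFP-positive libraries, so its position there depends on the 1 that was added.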

How the data were processed

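Libraries were made with a 3′ mRNA kit (QuantSeq) and sequenced on an Ion Proton, per the labels' protocols, from RNA with an integrity number over 7. Reads come from transcript ends, so values do not scale with transcript length. TopHat2, Bowtie2, the build mm10 and DESeq are named in the submitters' processing notes, while the counting tool, annotation and use of strand were not given there. The authors' deposited scores are normalised read counts rounded to whole numbers, as the headers name them. Their p-values, FDRs and log2 fold changes were also deposited. Depth was estimated from the spacing of low values, since raw counts were not used here. Because the values are not raw counts, no count model was run.

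limma 3.58.1 (R 4.3.3, trend and robust variance) was fitted to log2(value + 1) of every gene whose mean reached 10 in 1 group, with Benjamini-Hochberg adjustment over all genes tested, two-sided, with a threshold of 0.05. The scripts were tested on simulated data, where 64% of 2-fold and 100% of 4-fold changes between GFP-positive and unsorted cells were recovered. Those data gave all genes the same spread and changed only genes with a mean of at least 50. GFP-positive over GFP-negative was fitted in its own table, and the interaction over genes in both colon tables. The labels do not say that replicates are separate animals, so p-values measure the spread between these libraries, which may be technical. The members and gene lists were chosen with earlier results of these data known. Genes were named as the 12 largest called changes in each direction with a mean of at least 50 and no overlap (leaving out immunoglobulin and T cell receptor segments, Gm and Rik symbols), the markers, up to 4 called members in each direction and 2 others per list by mean level, and up to 8 interactions in each direction. A few other list members, and Syn3, were named for their known role or position after their values were seen. One gene that the rule names is not reported here. Where 2 gene IDs shared a symbol the more abundant one was used. Alternatives were other scalings, pseudocounts, filters, variance models, a replicate block, a joint fit and leaving out libraries.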

Additional observations from a re-analysis of the deposited data

Results flagged for a closer look

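Each gene here was picked out because its GFP-positive over unsorted difference, on the log2 scale, differed between the DSS and the normal colon in the test of the interaction (limma, 3 libraries in each of 4 groups). The difference, DSS minus normal, was 5.15 for Mmp13, 4.86 for Lcn2, 3.75 for Chl1, 3.67 for Rgs5, 3.62 for Ly6c2, 3.30 for AV026068, 2.68 for Mitd1, 2.45 for Esam and 2.15 for Syn3. It was -6.54 for Cpb1, -4.22 for Inhba, -3.68 for F10, -3.36 for Pla2g7, -2.58 for Ptx3, -2.41 for Tgfbi and -2.14 for Adrbk2. Adjusted p ran between 0.00026 for Mmp13 and 0.042 for Adrbk2, and all 16 stayed past the threshold without normal unsorted library 1.

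Esam, an endothelial and pericyte adhesion protein, had 202, 238 and 184 in GFP-positive and 547, 828 and 764 in unsorted libraries of the DSS colon, and 83, 57 and 129 in GFP-positive and 1637, 2018 and 1209 in unsorted libraries of the normal colon. Ly6c2, a monocyte gene whose reads may not be fully separable from those of its close copy Ly6c1, had 94, 86 and 69 in GFP-positive and 447, 391 and 234 in unsorted libraries of the DSS colon, and 11, 29 and 29 in GFP-positive and 1208, 1207 and 978 in unsorted libraries of the normal colon. F10, coagulation factor X, had 8, 7 and 6 in GFP-positive and 144, 143 and 142 in unsorted libraries of the DSS colon, and 9, 8 and 5 in GFP-positive and 11, 8 and 13 in unsorted libraries of the normal colon. Ptx3, the long pentraxin, had 128, 174 and 137 in GFP-positive and 522, 583 and 314 in unsorted libraries of the DSS colon, and 56, 47 and 62 in GFP-positive and 40, 18 and 31 in unsorted libraries of the normal colon. Pla2g7, which inactivates platelet-activating factor, had 45, 45 and 55 in GFP-positive and 444, 506 and 257 in unsorted libraries of the DSS colon, and 203, 191 and 167 in GFP-positive and 226, 95 and 136 in unsorted libraries of the normal colon. Lcn2 was listed at 0 in all 3 normal GFP-positive libraries, so its difference depends on the 1 that was added, and it did not pass with 5 added (limma adjusted p = 0.135). Cpb1, a pancreatic carboxypeptidase, had 20, 5 and 7 in GFP-positive and 362, 212 and 156 in unsorted libraries of the DSS colon, and 14, 17 and 27 in GFP-positive and 13, 1 and 3 in unsorted libraries of the normal colon.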

How the results depend on the processing

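By the authors' deposited FDR at 0.05, 377 genes were higher and 1394 lower in GFP-positive cells, against 2165 and 2905 here, and the cause was not tested. A minimum mean of 50, which tests fewer genes, left 1838 lower. Leaving out 1 library gave 1499 to 2268 higher and 2426 to 2972 lower genes. For the difference between DSS and normal colon, the 7 more negative genes became 15 with equal totals, 20 with a pseudocount of 5 and 12 with a replicate block, and the cause was not tested. Leaving out 1 library gave 6 to 33 more positive and 4 to 21 more negative genes. The 33 and 21 both came without normal unsorted library 1. The 4 came without DSS unsorted library 1, DSS GFP-positive library 2 or 3, normal unsorted library 2, or normal GFP-positive library 1 or 3. Equal totals moved the median log2 fold change by -0.09. Of 319 named genes past the threshold, 47 lost the call when some library was left out and 0 reversed under any alternative. Same-numbered DSS libraries correlated at 0.009, 0.103 and 0.092 (deviations from group means), and differently numbered ones at -0.167 to 0.056. With so few libraries these values cannot decide whether the numbers pair them, and the main fit used no pairing. With a replicate block, 2231 genes were higher and 3010 lower. Among the 16 genes whose difference changed, AV026068 lost its call in 9 of 19 alternatives, Esam in 11, Syn3 in 13, Ptx3 in 9, Tgfbi in 10, Adrbk2 in 12 and Lcn2 in 1. The other 9 kept theirs and none of the 16 reversed. Depth limits what can be said of genes near 1 read per library, such as those listed at 0.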

Other observations

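A few members of other cell types' lists were not lower in GFP-positive cells. Epx, an eosinophil peroxidase, had 59, 38 and 60 normalised counts in GFP-positive libraries, against 18, 23 and 27 in unsorted libraries, and Alox5, a lipoxygenase of leukocytes and tuft cells, had 143, 154 and 159 in GFP-positive libraries, against 88, 91 and 116 in unsorted libraries. Dclk1, a tuft cell and nerve kinase, had 135, 127 and 137 in GFP-positive libraries, against 61, 107 and 84 in unsorted libraries. These 3 rose past the threshold. Alox5 and Dclk1 did not pass with equal totals (limma adjusted p = 0.0828 and 0.0905) or without any one GFP-positive library (up to 0.118 each), nor Epx without GFP-positive library 3 (0.0501). Trpm5, a channel of tuft cells, had 340, 389 and 595 in GFP-positive libraries, against 363, 307 and 615 in unsorted libraries, and Foxp3, a regulatory T cell factor, had 25, 35 and 16 in GFP-positive libraries, against 30, 27 and 36 in unsorted libraries, neither past the threshold. Of the T and NK cell list, 13 of 15 genes fell, among them Lck (19, 5 and 9 in GFP-positive libraries, against 232, 78 and 82 in unsorted libraries).

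Transcripts best known from the exocrine pancreas, enzymes and a few other secretory proteins, were present in unsorted libraries of the DSS colon. Over 18 such genes, including Amy2a copies, Cpb1, Prss2 and Pnlip, the summed level was 164, 20 and 15 in GFP-positive libraries and 13, 30 and 42 in GFP-negative libraries, against 12876, 3480 and 1993 in unsorted libraries. The genes were chosen after their values were seen, and the source of these reads was not tested. Of the 18, 4 are listed in the table of the normal colon, whose levels are on their own scale. There Sycn had 74, 3165 and 1506 normalised counts in unsorted libraries, Cela1 50, 221 and 182, Clps 4, 108 and 100 and Cpb1 13, 1 and 3. Amy2a copies are 3 of the 12 largest named decreases.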
